A study of Mus musculus with 12 samples.

Results

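Granulosa cells of mice without Inha were compared with those of wild-type mice at 6 h after an ovulatory dose of gonadotropin. Inha encodes the alpha subunit shared by inhibin A and inhibin B. The comparison was set by the sample titles, which name 3 samples of each genotype after hCG, and it uses 6 of the 12 arrays of the series. All of these animals, controls included, carried the mixed strain label C57BL/6J;129S5/SvEvBrd, were injected at 21 days of age with 5 IU of PMSG for 44 to 46 h, and then received 5 IU of hCG for 6 h. The wild-type group is labelled wild type and the other group Inha-/-, with no promoter or Cre named. A constitutive null acts in the whole animal and throughout its life, and Inha-null mice are known to develop gonadal tumours. The remaining 6 arrays hold both genotypes after PMSG without hCG, 3 arrays each, and are used here to say where the difference after hCG departs from the one before it. Cells were collected by puncture of antral follicles, and the number of animals behind a sample is not given in the sources used here. According to the series design the 3 samples of a group are independent, and p-values measure the spread between these samples only.

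Granulosa cells line the follicle and nourish the oocyte. PMSG has FSH activity and grows follicles to preovulatory size. Through the LH receptor hCG mimics the surge that triggers ovulation, which raises cAMP in granulosa cells, releases EGF-like ligands that pass the signal on through ERK, lowers cGMP so that the oocyte resumes meiosis, induces prostaglandin and hyaluronan synthesis and proteases for follicle rupture, stops granulosa cell division and starts luteal progesterone synthesis. Inhibins oppose activins, which act through SMAD proteins, and they restrain FSH release by the pituitary, so an Inha-null animal differs from wild type in its endocrine state as well as in its granulosa cells.

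The values are log2 expression values of Affymetrix probe sets, each centred on its median over the 12 arrays: a value is a distance from that median and not a level, values of different genes cannot be ranked by level, and a fold is 2 to the power of a difference. No detection call was used, and where 1 genotype may lie at background the fold does not compare a pair of measured levels. Over single-gene probe sets the wild-type arrays after hCG correlated with each other at r between 0.683 and 0.823 and the knockout arrays at r between 0.388 and 0.722, a description across probe sets that are not independent. After hCG, replicate 1 of each genotype has an early serial number in its array name and replicates 2 and 3 late ones. The hybridization controls were lower on both early arrays (means -1.04 and -0.323) than on the 4 late ones (0.758 to 1.19). The 18S rRNA controls had means of -1.37, -0.000529 and 0.0996 on the wild-type arrays after hCG and -0.547, 1.52 and 1.55 on the knockout arrays. Within each serial class they were higher in the knockout, and their part in the results was not tested. After hCG both genotypes hold 1 early and 2 late arrays, but within each class every knockout serial number was higher than every wild-type one. The array names hold a further number, which wild-type replicates 2 and 3 share and which no wild-type array shares with a knockout array after hCG. An effect that follows these numbers within a class therefore cannot be separated from genotype after hCG by any fit used here. After PMSG all arrays are early but knockout replicate 3. The spread of values (SD over all non-control probe sets) was 0.600, 0.517 and 0.727 on the wild-type arrays after hCG. On the knockout arrays it was 0.416, 0.455 and 0.379. Every wild-type array thus had a wider spread than any knockout array, with wild-type replicate 3 the widest. The part of this difference in the results was not tested. The number of arrays limits the precision.

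Inha itself checked the labels. It stood at 5.52, 5.40 and 5.42 on the wild-type arrays after hCG and at -7.35, -7.35 and -7.40 on the knockout arrays, a log2 difference of -12.81 ± 0.43 (SE; adjusted p = 1.61e-06, limma with Benjamini-Hochberg adjustment over all 34945 single-gene probe sets). No knockout array came near a wild-type one. The position of the probe set relative to the deleted part of the gene is not given in the sources used here.

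By limma, 1418 of 18193 genes (7.79%) had higher and 995 (5.47%) lower values in the knockout after hCG, at an adjusted p under 0.05. In all that follows, a gene rose or fell where the knockout exceeded or lay below wild type after hCG by this test, ± is a standard error, and differences are on the log2 scale. At least a 2-fold difference was seen for 968 of the genes that rose (5.32%) and 688 of those that fell (3.78%). Knockout and wild-type arrays did not overlap for 5089 genes (28%). Counted over the 34945 probe sets, 2299 (6.58%) were higher and 1939 (5.55%) lower. The median difference over all genes was 0.000566, which is the value to set the list medians below against, as 7.79% and 5.47% are those to set the list counts against: a list whose share of rises or falls lies near them shows nothing particular to it. The lists and their members were chosen with earlier results of these data known, so list counts and medians describe and do not test. All 2413 calls had the same sign in the early pair of arrays and in the late arrays, which had themselves helped to make the calls. A fit with the replicate number as a block called 0 genes higher and 3 lower, the 4 late arrays alone 13 and 7, and the fit without wild-type replicate 3 called 848 and 623; there were 924 rises without knockout replicate 2 and 915 without knockout replicate 3. The plot of differences against adjusted p shows both wings.

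**Figure D1:**
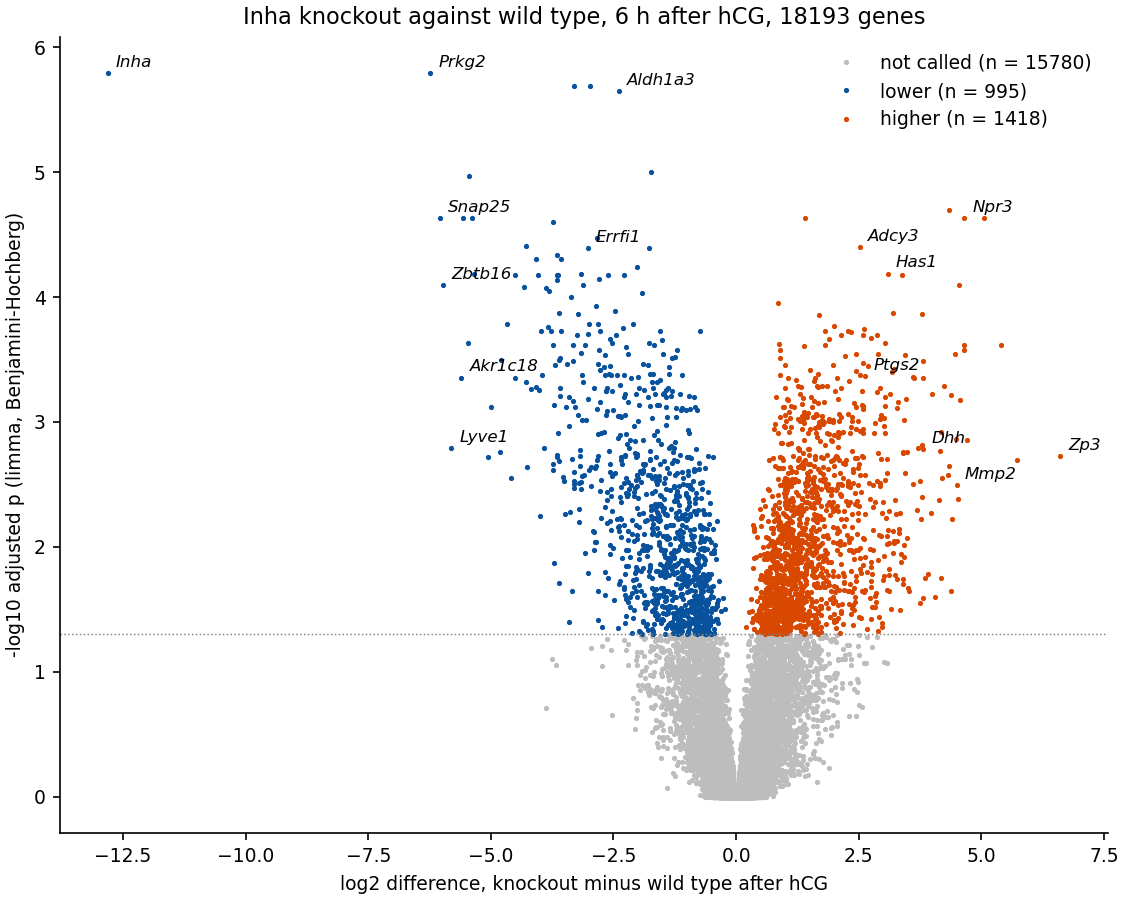
Each point is 1 of 18193 genes, with the log2 difference between the Inha knockout and wild type after hCG on the horizontal axis and -log10 of the adjusted p on the vertical axis; the dotted line is an adjusted p of 0.05. The 1418 genes that were higher are orange and the 995 that were lower are blue, with Inha at -12.81 far to the left.

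The 15 largest falls after Inha lay between -6.24 and -4.67. They were Prkg2 (-6.24), a cGMP-dependent protein kinase, Snap25 (-6.04), a protein of vesicle fusion, the zinc finger transcription factor gene Zbtb16 (-5.98), the hyaluronan receptor gene Lyve1 (-5.81), Akr1c18 (-5.60), whose enzyme inactivates progesterone, Tmem71 (-5.57), the sphingosine kinase gene Sphk1 (-5.46), the glycoprotein receptor gene Asgr1 (-5.45), the glucagon precursor gene Gcg (-5.39), the phosphatidylinositol transfer protein gene Pitpnc1 (-5.35), the WNT-binding protein gene Sfrp4 (-5.05), Cemip (-4.99), which takes part in hyaluronan breakdown, the ectonucleotidase gene Entpd1 (-4.81), the semaphorin gene Sema4f (-4.80) and the neuropeptide Y gene Npy (-4.67). In wild type, 14 of these 15 were called higher after hCG than after PMSG, a response that shares the wild-type arrays with the genotype comparison. Before hCG, 9 of the 15 differed between genotypes by less than 0.2 and 2 were called lower. The mean over all probe sets of a gene gave smaller falls for Snap25 (-3.37), Zbtb16 (-3.52), Sphk1 (-3.25) and Cemip (-1.75), and quantile normalization of the arrays gave -4.11 for Prkg2 and -4.01 for Snap25.

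The 15 largest rises lay between 4.39 and 6.61, and 12 of the 15 were called higher before hCG too. Zp3 (6.61) and Zp2 (5.72) encode proteins of the egg coat. The others were Fndc5 (5.40), the precursor of irisin, Srpx2 (5.04), the glutamate receptor subunit gene Grin2c (4.71), the proteoglycan gene Bcan (4.65), the water channel gene Aqp5 (4.65), Npr3 (4.65), the clearance receptor of natriuretic peptides, the dopamine receptor gene Drd4 (4.56), Tafa4 (4.55), Elobl (4.52), the gelatinase gene Mmp2 (4.50), the smooth muscle actin gene Actg2 (4.48), the FGF receptor gene Fgfr4 (4.47) and Pex5l (4.39). Srpx2 stood at -2.18, -1.98 and -2.10 on the wild-type arrays and 2.39, 3.39 and 3.09 on the knockout arrays, with no overlap. Other Fgfr4 probe sets lay at 0.00204 to 1.23 and the mean over its probe sets 1.25, and for Pex5l this mean was 2.12.

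Among listed effector genes that act downstream of the surge, more fell than rose in the knockout. The list was chosen with earlier results of these data known, so its count and median are a description only. Of 27 measured, 14 fell and 6 rose, with a median of -1.80, and the list had a median of -0.0988 in the genotype comparison before hCG. Prkg2 stood at 7.93, 7.49 and 7.96 on the wild-type arrays after hCG and at 1.57, 1.18 and 1.89 on the knockout arrays, a fall of 75.8-fold (-6.24 ± 0.21, adjusted p = 1.61e-06). Both groups were tight and far apart, and before hCG it stood at -1.53, -1.64 and -1.49 in wild type and -1.53, -1.78 and -1.18 in the knockout. Snap25 stood at 7.29, 6.97 and 7.51 in wild type and 0.27, 1.75 and 1.64 in the knockout, 65.6-fold lower (-6.04 ± 0.33, adjusted p = 2.32e-05), with the knockout replicate 1 below replicates 2 and 3. Its other probe set gave -0.70. Sphk1, whose product makes sphingosine 1-phosphate, stood at 6.26, 5.30 and 6.43 against -0.0346, 1.79 and -0.13 (-5.46 ± 0.47, adjusted p = 0.000234), with knockout replicate 2 the highest of its group. Edn2, the endothelin that contracts the follicle wall, stood at 1.72, 1.75 and 1.83 in wild type and at 0.0474, -0.0451 and -0.11 in the knockout (-1.80 ± 0.17, adjusted p = 0.000348). The 3 knockout arrays lay close to the series median and all wild-type arrays above it. The metallothionein genes Mt1 (-2.91) and Mt2 (-2.20), which bind zinc, fell as well. Quantile normalization gave -4.11 for Prkg2 and -4.01 for Snap25, and the mean over probe sets -3.37 for Snap25 and -3.25 for Sphk1, all still called.

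The chemokine receptor gene Cxcr4 (-2.31 ± 0.19), the hyaluronan receptor gene Lyve1 (-5.81 ± 0.77), the ephrin gene Efnb2 (-2.54 ± 0.41), the oestrogen sulphotransferase gene Sult1e1 (-2.56 ± 0.25) and the protease gene Adamts1 (-2.0 ± 0.24) also fell, with no overlap between the groups. Cxcr4 had gone the opposite way before hCG, where it was higher in the knockout (0.96, adjusted p = 0.0283); the test of the change between the genotype differences gave -3.27 ± 0.26 (adjusted p = 0.000867). Sult1e1 stood at 7.34, 7.34 and 7.48 in wild type and 4.24, 4.79 and 5.46 in the knockout, close together in wild type and farther apart in the knockout, and the genotypes had not differed past the threshold before hCG (0.15; change -2.70 ± 0.36, adjusted p = 0.0109). Quantile normalization ended the calls of Sult1e1 (-0.85) and Efnb2 (-1.31) and left Cxcr4 called at -1.03, and the count of falls in this list was then 8 of 27.

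The 6 members that rose were Ptgs2, Ptger4, Has2, Tnfaip6, Ereg and Rasd1. Without wild-type replicate 3 the count of rises in this list was 3. Ptgs2, the prostaglandin synthase that the surge induces, stood at 4.89, 3.98 and 3.76 on the wild-type arrays and 7.14, 6.58 and 6.81 on the knockout arrays, 6.22-fold higher in the knockout (2.64 ± 0.26, adjusted p = 0.000429). All knockout arrays lay above all wild-type arrays, its other probe set gave 2.93, and before hCG the genotypes differed by -0.0906. Ptger4, a receptor of prostaglandin E2, stood at 0.27, 0.79 and 1.19 against 4.89, 3.09 and 3.20 (2.98 ± 0.51, adjusted p = 0.00533), with knockout replicate 1 the highest. The EGF-like ligand gene Ereg stood at 4.56, 4.07 and 3.87 in wild type and 6.21, 4.79 and 5.16 in the knockout (1.22 ± 0.33, adjusted p = 0.0438). The call of Ereg was lost without wild-type replicate 2 (1.17) or 3 (1.07) and without knockout replicate 1 (0.81) or 3 (1.33), in a fit of the 6 arrays alone and with the number in the array names as a random block.

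**Figure D2:**
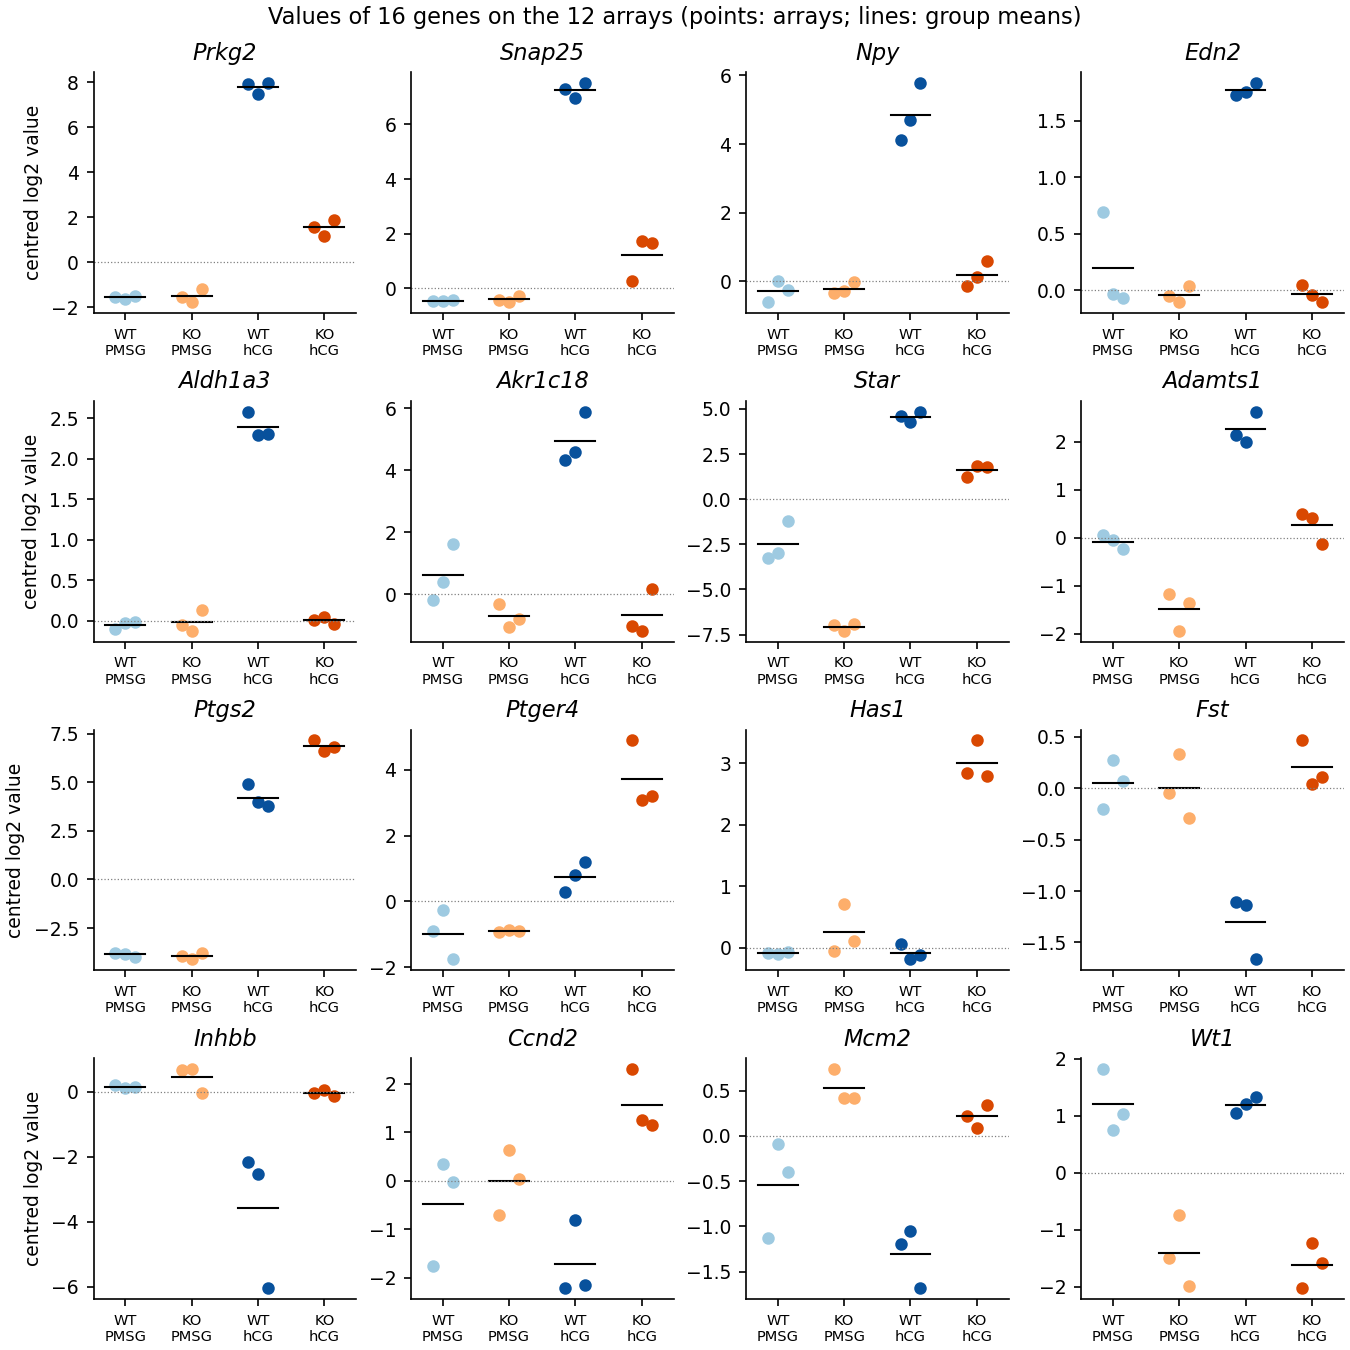
Centred log2 values of 16 genes on all 12 arrays, 3 arrays a group, with group means as lines and a vertical scale of its own in each panel. Prkg2, Snap25, Npy, Edn2, Aldh1a3 and Akr1c18 are highest in wild type after hCG, Ptgs2, Ptger4 and Has1 are highest in the knockout after hCG, and Inhbb on wild-type replicate 3 after hCG lies far below the other 2 arrays of its group.

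Promoters of 2 called members of this list that moved in opposite directions are shown. Promoter sequences, 250 bases before to 50 after a start site, came from RefSeq (GRCm38.p6) and were found for 14452 of the 18193 genes tested. The GC box, GGGCGG on either strand, was in a promoter of 10 of the 14 called members with an entry (71.4%), against 57.3% of all genes tested, 68.8% of all genes that rose and 71.7% of all that fell. Over all members with an entry, called or not, it was in 11 of 21 (52.4%). The share among called members was thus near that of called genes at large. The AP-1 motif TGANTCA, searched on both strands, was in 3 of the same 14, against 7.54% of all genes tested. The 2 sequences below are those of the called members with a GC box and the smallest adjusted p, Cxcr4, which fell, and Ptgs2, which rose; the box is in capitals. A match is a run of letters and not a bound site.
Cxcr4, chr1:128592250-128592549, minus strand: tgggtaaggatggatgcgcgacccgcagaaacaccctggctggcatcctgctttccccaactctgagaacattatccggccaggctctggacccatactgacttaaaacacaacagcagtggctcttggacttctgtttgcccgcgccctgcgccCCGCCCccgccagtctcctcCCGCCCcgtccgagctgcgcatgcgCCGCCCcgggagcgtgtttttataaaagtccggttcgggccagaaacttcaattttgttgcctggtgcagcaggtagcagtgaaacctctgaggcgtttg
Ptgs2, chr1:150099781-150100080, plus strand: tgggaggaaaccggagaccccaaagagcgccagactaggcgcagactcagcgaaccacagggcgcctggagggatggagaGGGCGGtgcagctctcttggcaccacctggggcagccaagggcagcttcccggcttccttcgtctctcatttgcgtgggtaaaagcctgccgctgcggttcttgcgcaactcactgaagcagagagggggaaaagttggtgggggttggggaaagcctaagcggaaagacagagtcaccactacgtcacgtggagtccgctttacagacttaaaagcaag

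Transcription factors and coregulators of ovulation were split, with 6 of 23 falling, 3 rising and a median of -0.41, against -0.37 before hCG. The largest rise was that of Tcf21 (2.76), which is also in the stroma and theca marker lists. Its call was lost without wild-type replicate 1 or 3 or knockout replicate 2 or 3. Zbtb16 stood at 5.31, 5.32 and 6.46 on the wild-type arrays and at -0.25, -0.31 and -0.30 on the knockout arrays (-5.98 ± 0.42, adjusted p = 8.03e-05). The knockout arrays lay together just under the series median and all wild-type arrays far above it. The coactivator genes Cited4 (-3.82 ± 0.27) and Cited1 (-3.33 ± 0.31), the runt factor gene Runx1 (-3.29 ± 0.50) and the nuclear receptor gene Pparg (-0.90 ± 0.14) fell without overlap. Pgr, the progesterone receptor that ovulation needs, stood at 4.43, 4.12 and 4.46 against 3.40, 3.62 and 3.80 (-0.73 ± 0.13, adjusted p = 0.00695). Pgr was higher in the knockout after a further quantile normalization (0.57), and the mean over its probe sets gave -0.25, not called. Cited4 stood at -2.37 and Runx1 at -1.89 after quantile normalization, the mean over probe sets was -1.91 for Cited4 and -3.52 for Zbtb16, and all of these stayed called. Without knockout replicate 1, 2 or 3, or wild-type replicate 1 or 3, 1 of this list was called higher.

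The immediate early factors, which the surge induces within minutes to hours, had a median of -0.81, with 3 of 24 falling and none rising. Klf2 stood at 3.56, 2.55 and 3.23 in wild type and 0.0327, 0.93 and -0.30 in the knockout (-2.89 ± 0.53, adjusted p = 0.00761), and Klf9 fell by 2.21 (-1.35 as the mean over its probe sets). Among members that did not pass, the largest difference was that of Fosb (-3.88 ± 1.66, adjusted p = 0.194). The list had a median of -1.09 before hCG as well. The stress and dissociation list, which shares Fos, Jun, Egr1, Atf3 and Ier2 with it, had medians of 1.33, 0.56 and 0.49 on the wild-type arrays after hCG and 0.31, -0.0137 and -0.21 on the knockout arrays, with 2 of 16 members falling; its part in the result was not tested. Of 18 immediate early genes with a promoter entry 1 held the cAMP response element TGACGTCA, which is its own reverse complement, against 2.92% of all genes tested.

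In the EGF-like relay the members moved both ways. Of 14 measured ligands, receptors and regulators, 3 fell and 1, Ereg, rose (median -0.0332). Errfi1, an intracellular inhibitor of the EGF receptor, stood at 3.63, 3.60 and 4.08 on the wild-type arrays and 0.93, 0.65 and 0.66 on the knockout arrays (-3.03 ± 0.19, adjusted p = 4.03e-05), and the ligand gene Epgn at 4.55, 4.58 and 5.03 against 3.56, 3.05 and 3.39 (-1.39 ± 0.15, adjusted p = 0.000532). Neither gene overlapped between groups, but quantile normalization gave -1.78 for Errfi1 and -0.0455, not called, for Epgn. Btc, a further ligand, stood at 4.05, 3.58 and 3.98 against 3.47, 3.88 and 3.94 and did not pass (-0.11 ± 0.38); its sign turned with quantile normalization (1.06) and without knockout replicate 1 (0.0383). Of the 19 phosphatases and Sprouty proteins that limit ERK, 3 fell and none rose (median -0.18), led by Dusp1 (-2.58 ± 0.52, adjusted p = 0.0115), which stood at 2.97, 1.72 and 2.56 in wild type and -0.14, 0.13 and -0.47 in the knockout.

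Of 19 prostaglandin genes 5 rose, 1, the uptake carrier, fell, and 13 did not pass the test (median 0.0805). Beside Ptgs2 and Ptger4, Ptgis, which makes prostacyclin (2.06 ± 0.21, adjusted p = 0.000448), and Pla2g4a, the phospholipase that frees arachidonic acid (0.89 ± 0.16), rose. Ptges, which makes prostaglandin E2, rose by 2.75, a call lost without knockout replicate 2 (2.84) or 3 (2.55), in a fit of the 6 arrays and with the random block. Ptgis stood at -1.03, -1.15 and -1.49 against 0.91, 0.97 and 0.64 without overlap. Slco2a1, which carries prostaglandins into cells, stood at 3.69, 2.55 and 4.23 in wild type and -0.12, 0.84 and 0.18 in the knockout (-3.19 ± 0.44, adjusted p = 0.00188). It had not differed past the threshold before hCG (0.0533), and the change between both genotype differences passed narrowly (-3.25 ± 0.62, adjusted p = 0.0499).

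Of the 23 genes of the hyaluronan matrix that expands the cumulus, 4 rose and 1 fell (median 0.0196). Has1, a hyaluronan synthase, stood at 0.0576, -0.19 and -0.12 in wild type and 2.84, 3.37 and 2.80 in the knockout (3.09 ± 0.20, adjusted p = 6.49e-05), 8.52-fold higher. Has1 did not respond to hCG past the threshold in wild type (0.00737) and was called higher after it in the knockout (2.75), and the test of the change between genotype differences gave 2.74 ± 0.29 (adjusted p = 0.00359). Has2, the synthase of cumulus expansion, stood at 2.83, 1.61 and 1.95 against 5.65, 3.53 and 3.47 (2.08 ± 0.55, adjusted p = 0.0374), without overlap. The call of Has2 was lost without wild-type replicate 2 (1.82) or 3 (1.99), in a fit of the 6 arrays and with the array name number as a random block, and its difference was 1.37 without knockout replicate 1. Tnfaip6, which links hyaluronan to serum proteins, stood at 3.02, 2.85 and 3.02 against 4.56, 4.44 and 4.30 (1.47 ± 0.28, adjusted p = 0.00845), and the random block ended its call (adjusted p = 0.0521). Hyal2, which cleaves hyaluronan, rose by 1.07. Ptx3, a matrix stabiliser, stood at 4.44, 3.51 and 3.45 against 3.82, 3.58 and 3.48 and did not pass (-0.17 ± 0.36), its sign turning with quantile normalization (0.90), with array weights (0.00804) and without wild-type replicate 1 (0.15).

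Proteases of follicle rupture did not move as a group: 4 of 38 fell and 3 rose, with a median of 0.0211. Adam8 stood at 2.93, 2.81 and 3.60 on the wild-type arrays and -0.10, 0.10 and 0.25 on the knockout arrays (-3.03 ± 0.33, adjusted p = 0.000651). Adamts1, a protease that progesterone signalling induces and that cleaves versican, stood at 2.15, 2.01 and 2.63 against 0.49, 0.41 and -0.13 (-2.0 ± 0.24, adjusted p = 0.000986) and was lower before hCG too (-1.42, adjusted p = 0.0168). Adamts9 fell by 3.09, with -1.85 after quantile normalization and -1.98 as the mean over its probe sets. Mmp2 went the other way (4.50 ± 0.69), at -3.52, -2.05 and -1.06 in wild type and 1.07, 3.19 and 2.60 in the knockout, beside stromal genes that rose. Without knockout replicate 2 or 3, or wild-type replicate 1, 1 of the list was called higher.

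Members of the cGMP relay, by which granulosa cells hold the oocyte in meiotic arrest, differed in both directions. Of 16, 3 rose and 2 fell, and the median was -0.00396. Nppc, the ligand, stood at -2.89, -2.08 and -6.53 on the wild-type arrays and 0.40, 0.0587 and -0.52 on the knockout arrays (3.82 ± 0.92, adjusted p = 0.0255); its call was lost without knockout replicate 1 (3.61), 2 (3.78) or 3 (4.07) , in a fit of the 6 arrays and with the random block, and it was 2.47 without wild-type replicate 3, which lies far below the others of its group. Npr3, the receptor that clears the ligand, stood at 1.19, 0.29 and 0.73 against 5.84, 5.16 and 5.15 (4.65 ± 0.25, 25.1-fold, adjusted p = 2.32e-05), and the genotype difference after hCG exceeded that before it (0.81) by 3.84 ± 0.35 (adjusted p = 0.0016). Npr1, the guanylyl cyclase receptor of atrial peptide, stood at 3.23, 2.76 and 2.96 against 0.0536, 0.88 and -0.0117 (-2.67 ± 0.25, adjusted p = 0.000292). Pde9a, a cGMP phosphodiesterase, rose by 1.97 and was as high in the knockout before hCG (1.95, adjusted p = 0.0149). Npr2, the receptor through which Nppc makes cGMP, gave 1.05 ± 0.40 and did not pass.

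Steroid synthesis and breakdown held 5 falls and 3 rises among 25 measured genes (median -0.33; -0.46 before hCG). Star, which carries cholesterol to the inner mitochondrial membrane, stood at 4.59, 4.28 and 4.84 in wild type and 1.21, 1.84 and 1.81 in the knockout (-2.95 ± 0.46, adjusted p = 0.00327), and Cyp11a1, the side-chain cleavage enzyme, at 1.65, 1.11 and 1.46 against -1.04, -0.56 and -1.06 (-2.29 ± 0.25, adjusted p = 0.000626). Both were lower in the knockout before hCG by more (-4.60 and -3.23), and the tests of the change in the genotype difference did not pass (adjusted p = 0.386 and 0.355). Akr1c18, which turns progesterone into an inactive form, stood at 4.32, 4.59 and 5.88 against -1.02, -1.18 and 0.17 (-5.60 ± 0.57, adjusted p = 0.000441), and here the difference had not passed before hCG (-1.33). Hsd17b1, which makes oestradiol from oestrone, rose by 1.67 and Cyp1b1, which hydroxylates oestrogens, by 1.56. For Cyp11a1 the remaining probe sets gave -0.0668 to 0.0117, with a mean of -0.78 that was still called, and this mean was 0.96 for Cyp1b1. Quantile normalization ended the call of Star (-1.56, adjusted p = 0.0651), and the fit of the 6 arrays or the random block that of Hsd17b1. None of the 17 members with a promoter entry held CAAGGTCA on either strand, the core to which the NR5A receptors bind, a motif in 1.58% of all genes tested; this says only that these letters are not in the windows read.

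Genes of cholesterol supply fell in 6 of 34 cases and rose in 2 (median -0.27). Stard5, a carrier of cholesterol within the cell, stood at 2.88, 2.61 and 3.63 on the wild-type arrays and -1.03, -0.20 and -0.36 on the knockout arrays (-3.57 ± 0.29, adjusted p = 0.000186). Hmgcs1, an early enzyme of cholesterol synthesis, stood at 2.14, 1.96 and 2.43 against 0.38, 0.063 and -0.063 (-2.05 ± 0.32, adjusted p = 0.00338), and the lipoprotein receptor gene Lrp8 fell by 1.69. Mvk, the mevalonate kinase of the same pathway as Hmgcs1, rose by 1.27, so that 2 steps of a single pathway went opposite ways. The largest difference that missed the threshold was that of Hsd17b7 (-1.51 ± 0.53). For Stard5 the mean over its probe sets was -2.09 and for Lrp8 quantile normalization gave -1.06, both still called. Without wild-type replicate 3 the falls in the list numbered 3.

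Several genes of secreted peptides and vesicle fusion were low in the knockout after hCG and did not differ past the threshold before it. Of 35 peptides and receptors 6 fell and 3 rose (median -0.00462), and of 27 SNARE and vesicle genes 5 fell and 2 rose (median -0.22). Gcg stood at 5.14, 4.78 and 6.27 in wild type and 0.0219, -0.00487 and -0.00715 in the knockout (-5.39 ± 0.30, adjusted p = 2.32e-05), and Npy at 4.12, 4.69 and 5.78 against -0.14, 0.14 and 0.59 (-4.67 ± 0.37, adjusted p = 0.000166). On the knockout arrays both genes lay near their series medians. Scg2, a granin of secretory vesicles, stood at 3.29, 2.07 and 4.0 against 0.0802, -0.032 and -0.12 (-3.14 ± 0.38, adjusted p = 0.000967), and the syntaxin gene Stx3 fell by 2.42. Syt7, a calcium sensor of exocytosis, rose instead, from -1.89, -1.66 and -2.96 in wild type to 1.0, 1.01 and 0.50 in the knockout (3.01 ± 0.37, adjusted p = 0.00108), and the neuromedin B gene Nmb rose by 2.55. Falls in the SNARE list numbered 3 without knockout replicate 1 or 3 or wild-type replicate 1 or 2, and rises in the peptide list 1 without any 1 of the wild-type arrays.

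In further lists single genes fell and others rose. The retinal dehydrogenase gene Aldh1a3, 1 fall among 20 retinoid genes and no rise, stood at 2.58, 2.29 and 2.30 on the wild-type arrays and 0.0111, 0.0418 and -0.0389 on the knockout arrays (-2.39 ± 0.0903, adjusted p = 2.24e-06), although its other probe sets gave -0.52 to -0.20 and the mean over them -1.04. Of 25 genes of glycolysis and lactate 3 fell and 3 rose, with Pfkfb4, which sets the level of a glycolytic activator, at 3.02, 2.82 and 3.37 against -1.46, -0.34 and -0.90 (-3.97 ± 0.33, adjusted p = 0.000187) and Pdk4, the kinase that shuts pyruvate dehydrogenase, at -2.81 ± 0.27. Of 30 angiogenic and hypoxia genes 5 rose and 4 fell, among them Epas1, the HIF-2 alpha gene (-2.74 ± 0.48, adjusted p = 0.00585), and Thbs2, an inhibitor of vessel growth (2.80 ± 0.47). In that list 1 member was called higher and 2 lower without wild-type replicate 3, 2 and 2 without knockout replicate 2, and 3 were called higher without knockout replicate 3 or wild-type replicate 2. Of 30 genes listed for the IL-6 and TNF families and STAT signalling 3 fell, among them the chemokine receptor gene Cxcr4 (-2.31). Of 32 genes of junctions, channels and water pores 4 fell, with the claudin gene Cldn3 at -2.57 ± 0.22, and 3 rose. Over all genes 7.79% rose and 5.47% fell, so that counts as small as these say nothing of the lists. The semaphorin and ephrin list split into 5 rises, such as the receptor gene Epha4 (3.22), and 4 falls, such as Sema3e (-3.19; -2.06 as the mean over its probe sets), among 30, with 3 called higher without knockout replicate 2 or wild-type replicate 2 or 3. Rises numbered 5 in the glycolysis list without wild-type replicate 1 and 5 in the junction list without knockout replicate 1. Of 25 genes of protein folding in the endoplasmic reticulum 5 rose and 2 fell, with 2 called higher without knockout replicate 2 or 3 or wild-type replicate 1 or 3 and 3 without knockout replicate 1, and of 25 genes of apoptosis and survival 1 rose and 2 fell. The folding genes that fell, Ddit3 (-0.75) and Atf4 (-0.63), lost their calls without any 1 of 5 arrays, all but wild-type replicate 1 for Ddit3 and all but wild-type replicate 2 for Atf4, which left 0 or 1 of them called. The apoptosis gene that rose, Bcl2l11 (1.21), lost its call without any array but knockout replicate 2.

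Genes of activin and TGF-beta signalling were higher in the knockout where they were called at all. Apart from Inha, no member of 28 fell and 8 rose (median 0.35, against 0.0948 before hCG). Fst, follistatin, which binds and blocks activin, stood at -1.11, -1.14 and -1.66 on the wild-type arrays and 0.47, 0.0469 and 0.11 on the knockout arrays (1.51 ± 0.21, adjusted p = 0.00217). The ligand gene Tgfb3 (2.07 ± 0.34) and Pmepa1, a SMAD-induced feedback inhibitor (1.52 ± 0.29), rose too, the latter also before hCG (2.23). The activin subunit genes stood at -2.16, -2.54 and -6.04 in wild type against -0.0553, 0.0437 and -0.13 in the knockout for Inhbb (3.53 ± 0.83, adjusted p = 0.0226) and at -1.65, -0.49 and -2.35 against 0.045, 0.43 and 0.21 for Inhba (1.72 ± 0.42, adjusted p = 0.026). Wild-type replicate 3 was the lowest array for both genes and the groups did not overlap. Inhbb was 2.30 without that array and lost its call without knockout replicate 1 (3.54), 2 (3.49) or 3 (3.58), and Inhba lost it without any array but wild-type replicate 2 (1.30 without wild-type replicate 3, and 1.65, 1.81, 1.62 and 1.73 without wild-type replicate 1 and knockout replicates 1, 2 and 3); both lost it in a fit of the 6 arrays and with the random block. The other probe set of Inhba gave 0.000192, and the mean over both 0.86. The count of rises was 5 without knockout replicate 1 or 2 and 4 without knockout replicate 3.

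The FSH-driven program that hCG closes in wild type held 6 rises and 1 fall among 18 genes, with a median of 1.25 after hCG and -0.50 before it. Ccnd2, the D-type cyclin of granulosa cell division, stood at -2.21, -0.81 and -2.15 on the wild-type arrays and 2.30, 1.25 and 1.14 on the knockout arrays (3.29 ± 0.63, 9.78-fold, adjusted p = 0.009). Wild-type replicate 2 was the highest of its group and still below the lowest knockout array. The growth factor gene Igf1 rose by 1.83 with 1.04 to 1.66 on its other probe sets, and Sgk1, a kinase that FSH induces, fell by 2.04, as it was lower before hCG (-2.03). Without any 1 of the 3 knockout arrays, 3 members were called higher. Foxl2, the factor that keeps granulosa cell identity, stood at -1.24, -2.02 and -4.62 against -0.52, -0.082 and 0.082 (2.45 ± 1.11), Esr2 at -1.29, -1.0 and -2.52 against -0.14, -0.53 and 0.14 (1.43 ± 0.47), and Fshr, the FSH receptor gene, gave 0.66 ± 0.31 and Nr5a2 0.89 ± 0.36; none of these 4 passed. Lhcgr, Cyp19a1 and Areg were not analysed here.

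Of 34 genes of gonadotropin receptors and the cAMP relay 5 rose and 2 fell (median 0.0565), beside 7.79% and 5.47% of all genes. Of the falls, Prkar1b, a regulatory subunit gene of protein kinase A, stood at -2.24 (adjusted p = 0.0358), a call lost without any 1 of 5 arrays, all but knockout replicate 2. The adenylyl cyclase gene Adcy3 stood at -0.89, -1.36 and -1.0 in wild type and 1.56, 1.39 and 1.35 in the knockout (2.52 ± 0.15, adjusted p = 3.98e-05), and Adcy7 rose by 3.47 after and by 4.94 before hCG. Rgs2, which limits signalling of G proteins, stood at 2.40, 2.12 and 2.58 against 0.0208, 0.45 and 0.22 (-2.14 ± 0.22, adjusted p = 0.000441; -1.06 as the mean over its probe sets). Without knockout replicate 2 or 3, 2 of the cAMP list were called higher, and 3 without wild-type replicate 3. Of 23 BMP and AMH genes 2 rose and 4 fell (median -0.0207), and without wild-type replicate 3 none was called higher and 1 lower. Without the other arrays it was 1 to 3 higher and 1 or 2 lower. Amh stood at 1.98, 0.29 and -0.44 on the wild-type arrays and -0.85, 2.03 and -0.29 on the knockout arrays, overlapping widely (-0.31 ± 1.12), and its sign turned without wild-type replicate 1 (0.37) or knockout replicate 1 (0.26) and with array weights (0.72).

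Genes of DNA replication and mitosis stood higher in the knockout after hCG across almost the whole of both lists. Of 39 DNA replication genes 28 rose, none fell and 38 lay above 0, with a median of 1.14; of 39 mitosis genes 17 rose, none fell and 38 lay above 0, with a median of 0.76. The medians were 0.76 and 0.54 before hCG, where 4 and 1 members were called higher. The DNA ligase gene Lig1 stood at -0.99, -1.19 and -1.77 on the wild-type arrays and 0.15, 0.37 and 0.18 on the knockout arrays (1.55 ± 0.18, adjusted p = 0.000764). Pold1, the catalytic subunit of DNA polymerase delta, stood at -1.31, -1.20 and -1.70 against -0.18, 0.69 and 0.32 (1.68 ± 0.24, adjusted p = 0.00237). Every knockout array of these genes was above every wild-type array. Others of this list that rose were the nuclease gene Fen1 (0.89), the polymerase and primase genes Pola1 (1.70), Pole (1.51) and Prim1 (1.22), the helicase genes Mcm2 (1.52) and Mcm5 (1.10), the licensing factor genes Cdt1 (1.25) and Cdc6 (1.58), the histone chaperone gene Chaf1b (1.93) and the repair gene Brca2 (1.47). Mki67, the marker of cycling cells, stood at -1.05, -1.03 and -1.62 against 0.43, -0.0752 and 0.17 (1.41 ± 0.20, adjusted p = 0.00203). The cyclin genes Ccnb2 (1.35) and Ccna2 (0.92), the spindle checkpoint kinase gene Bub1b (1.09) and the kinetochore gene Nuf2 (1.43) rose too.

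Among cell cycle regulators was E2f1, the activating E2F factor of S phase entry. It stood at -1.39, -1.12 and -1.62 on the wild-type arrays and 0.40, 0.36 and 0.53 on the knockout arrays (1.81 ± 0.16, adjusted p = 0.000241). The cyclin gene Ccne1 rose by 1.31. Of the 28 G1 cyclins, inhibitors and E2F factors 6 rose and 1, the CDK inhibitor gene Cdkn2d (-1.42), fell (median 0.36). Cdkn2d was not called after quantile normalization (-1.10), with the random block (-1.38) or without wild-type replicate 3 (-1.25). Cdkn1a, the p21 inhibitor, had the largest difference without passing (-1.88 ± 0.60, adjusted p = 0.0753). The mean over probe sets was 0.85 for Pola1, 0.95 for Chaf1b, 0.80 for Cdt1 and 1.08 for E2f1, all still called. Leaving out an array left 20 to 29 of the DNA replication genes and 10 to 15 of the mitosis genes called higher, with the fewest in mitosis (10) without wild-type replicate 3; quantile normalization left 23 and 11.

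**Figure D3:**
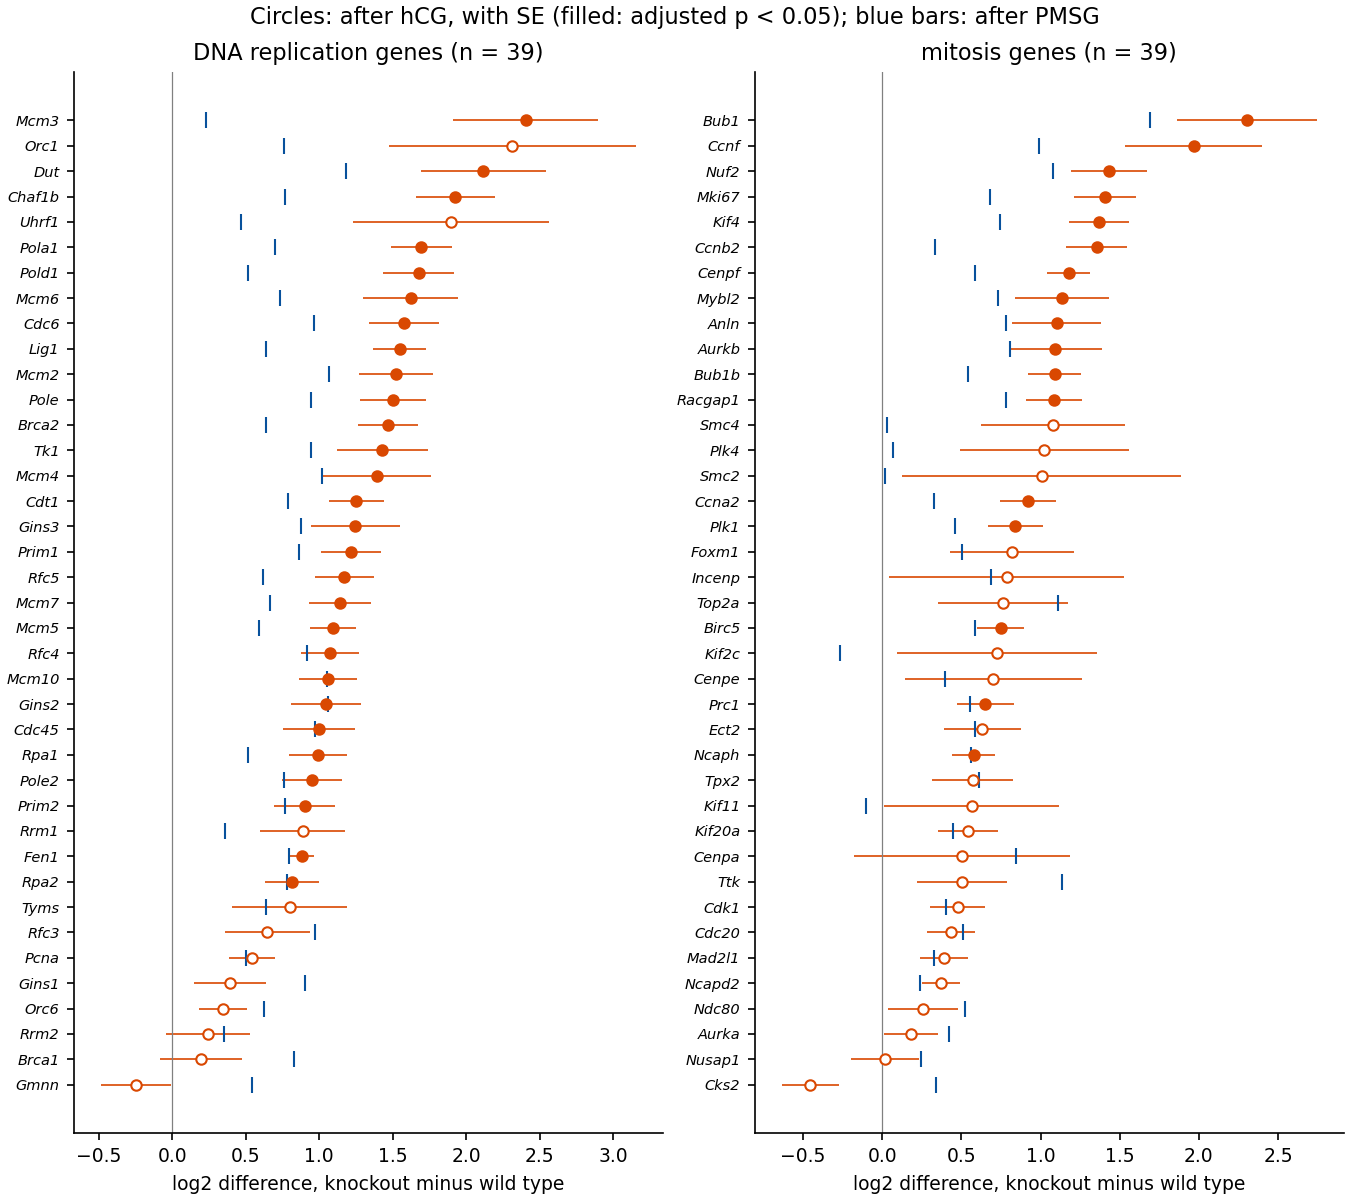
Log2 differences between the knockout and wild type for the 39 DNA replication genes (left) and the 39 mitosis genes (right): circles give the difference after hCG with its SE, filled where the adjusted p was under 0.05, and blue bars the difference after PMSG. In each list 38 of the 39 circles lie to the right of 0, and the medians are 1.14 and 0.76 after hCG.

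Promoters of 2 called DNA replication genes are shown, as many genes of that list hold the motif read by E2F factors. The letters searched, on both strands, were TTTCCCGC, TTTCGCGC, TTTGCCGC and TTTGGCGC. They were in a promoter of 15 of the 33 DNA replication genes with an entry (45.5%), called or not, against 3.81% of all genes tested and 7.24% of all genes that rose. Of the called DNA replication genes with an entry 12 of 24 held it (50%). Among mitosis genes it was 2 of 32, none of them called. Among the G1 cyclins, CDK inhibitors and E2F factors it was 7 of 21 (33.3%), and 1 of the 5 that were called. A match is a run of letters and not a bound site, and a link between E2f1 and these genes was not tested. The 2 sequences are those of the called members with the motif and the smallest adjusted p, with the match in capitals.
Lig1, chr7:13278576-13278875, plus strand: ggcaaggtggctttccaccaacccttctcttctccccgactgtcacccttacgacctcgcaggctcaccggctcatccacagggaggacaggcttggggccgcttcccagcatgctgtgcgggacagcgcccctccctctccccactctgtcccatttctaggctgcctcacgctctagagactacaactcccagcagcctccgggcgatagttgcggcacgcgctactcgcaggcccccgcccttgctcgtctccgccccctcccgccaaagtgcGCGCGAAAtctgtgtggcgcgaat
Pola1, chrX:93632106-93632405, minus strand: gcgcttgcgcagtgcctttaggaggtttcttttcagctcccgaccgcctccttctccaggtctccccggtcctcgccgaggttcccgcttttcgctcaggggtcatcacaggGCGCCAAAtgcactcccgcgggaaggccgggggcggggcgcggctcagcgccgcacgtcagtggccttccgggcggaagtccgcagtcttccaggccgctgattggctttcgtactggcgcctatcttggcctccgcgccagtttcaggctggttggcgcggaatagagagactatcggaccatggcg

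The hedgehog, IGF and FGF lists held more rises than falls, as did all genes (7.79% and 5.47%). The EGF-like list (1 rise, 3 falls) and the BMP and AMH list (2 rises, 4 falls) held more falls than rises. Their medians were -0.0332 and -0.0207, and counts as small as these give no direction for a list. Of 15 hedgehog genes 6 rose and none fell (median 0.72; 0.97 before hCG). The granulosa cell ligand gene Dhh stood at -3.63, -2.55 and -4.73 in wild type and 0.0237, 0.0678 and 0.41 in the knockout (3.81 ± 0.51, adjusted p = 0.00165), and the transcription factor gene Gli2 at -0.93, -1.22 and -1.36 against 1.53, 1.34 and 1.19 (2.52 ± 0.25, adjusted p = 0.000418). Gli2 was as high before hCG (2.73), whereas Dhh had not differed past the threshold there (0.72), with no call for the change between both differences (adjusted p = 0.0996). Of 20 IGF genes 5 rose and 2 fell (median 0.43): the binding protein genes Igfbp4, at -0.47, -0.69 and -1.01 against 1.45, 2.38 and 1.78 (2.59 ± 0.25), and Igfbp2 (1.93) and the receptor gene Igf2r, which clears IGF2 (1.51 ± 0.15), rose. For Igf2r the genotype difference after hCG exceeded that before it by 1.83 ± 0.21 (adjusted p = 0.00533). Of 17 FGF genes 5 rose and none fell, led by Fgfr4 and by Flrt3 (1.91) and Fgfrl1 (1.59). No member of the IGF list was called lower without wild-type replicate 1, 2 or 3 or without knockout replicate 2 or 3, and 1 was without knockout replicate 1. For Fgfr4 the mean over probe sets was 1.25.

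The WNT list split: 5 of 36 rose and 4 fell (median 0.10). The receptor gene Fzd1, which the surge induces, stood at 3.14, 2.76 and 3.56 in wild type and 0.30, 0.86 and 1.0 in the knockout (-2.43 ± 0.24, adjusted p = 0.000423), although it was higher in the knockout before hCG (1.12, adjusted p = 0.0426; change -3.55 ± 0.34, adjusted p = 0.00212). Quantile normalization gave -1.41 for Fzd1, and 3 of the list were called higher without knockout replicate 2. The secreted inhibitor genes went apart, with Sfrp4 at -5.05 ± 0.69 and, in the other direction, Dkk3 at 2.46 ± 0.41 and Sfrp1 at 3.33. Other Sfrp1 probe sets gave 0.19 to 2.55.

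Genes of granulosa and Sertoli fate gave 6 falls and 2 rises among 30 (median -0.27). Wt1, a transcription factor of gonadal somatic cells, stood at 1.05, 1.20 and 1.33 on the wild-type arrays and -2.02, -1.24 and -1.58 on the knockout arrays (-2.81 ± 0.36, adjusted p = 0.00124), and Aard and Defb19 fell by 3.65 and 1.86. All 3 were called lower before hCG as well (-2.62, -3.10 and -1.79). Gdnf, a growth factor of Sertoli cells, rose by 1.89 after hCG and by 1.17 before it. Sox9, the factor of Sertoli fate, stood at 0.0902, 0.80 and 0.00748 against 0.18, -0.0756 and -0.0176, with overlap, and did not pass (-0.27 ± 0.20); the early arrays alone gave 0.0889.

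Markers of other cell types moved with the genotype, and their part in the results above was not tested; in bulk samples fewer cells of a type and less RNA per cell cannot be told apart. Of 19 oocyte transcripts 11 rose and none fell, with list medians of -0.59, -1.46 and -1.38 on the wild-type arrays after hCG and 0.29, 2.85 and 2.73 on the knockout arrays. Before hCG the list's median difference was 2.39, with 4 called higher. After hCG knockout replicate 1 was the lowest of its group, and still above all wild-type arrays. Zp3 stood at -4.48, -4.11 and -4.30 against 0.84, 3.23 and 2.89 (6.61 ± 0.90, adjusted p = 0.00188), and the egg coat gene Zp1 rose by 4.34, and Dppa3 and Ooep, both of the egg, by 3.68 and 3.77. Oocyte transcripts called higher numbered 5 without knockout replicate 2 or 3 or wild-type replicate 3, and 7 without wild-type replicate 2. Of 16 stroma and smooth muscle markers 10 rose and none fell, with medians of -1.30, -0.64 and -0.52 in wild type and 0.32, 2.43 and 1.78 in the knockout; before hCG 5 were called higher and the median difference was 1.75. Actg2 stood at -3.31, -1.43 and -2.01 against 1.43, 3.05 and 2.19 (4.48 ± 0.58, adjusted p = 0.00137), and Cnn1, a smooth muscle calponin, rose by 3.97.

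Of 39 genes of collagens, laminins and elastic fibres 12 rose and 2 fell (median 1.12; 0.92 before hCG). The collagen genes Col6a1 (2.44 ± 0.22, adjusted p = 0.000288) and Col1a1 (2.91 ± 0.54) and the elastin crosslinker gene Loxl1 (2.27 ± 0.19) rose, while Coch and Comp, both secreted matrix proteins, fell. Coch stood at 2.79, 2.24 and 1.39 in wild type and -3.27, -1.39 and -1.70 in the knockout (-4.26 ± 0.61, adjusted p = 0.00228). Without knockout replicate 1 the count of rises was 19 and without knockout replicate 3 it was 7.

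Surface epithelium markers went down: 6 of 13 fell and none rose, with medians of 0.35, 0.99 and 1.02 in wild type and -0.0056, -0.33 and -0.44 in the knockout, and 6 were called lower whichever array was left out. Before hCG 5 of the 13 were called lower, with a median difference of -1.46 against -1.32 after it. The keratin gene Krt18 stood at 1.59, 2.32 and 1.53 against 0.039, -0.66 and -0.65 (-2.23 ± 0.29, adjusted p = 0.00151), and Krt8, Krt7 and Krt19 fell by 1.56, 1.48 and 1.32. No leukocyte marker of 20 was called (medians -0.0908, -0.0204 and 0.14 on the wild-type and 0.0294, 0.84 and 0.82 on the knockout arrays; the largest difference was that of S100a8 at 1.68 ± 0.87), and none of 8 red blood cell markers (median 0.00407). Of 16 endothelial markers 1 rose and 1 fell, and of 9 theca markers 2 rose, among them Enpep (3.99 ± 0.43), and 2, Star and Fabp4, fell; the mean over the probe sets of Fabp4 was -1.87 against -3.71. The granulosa cell list had 4 rises and no fall among 12, with medians of -1.05, -0.65 and -1.67 in wild type and -0.0878, 0.0227 and -0.00665 in the knockout, and before hCG none was called and the median difference was -0.48. Inha is not among these 12, and 2 were called higher without any 1 of the knockout arrays. Of 11 cumulus and preantral granulosa markers 2 rose and 2 fell. Since values are centred, no marker could be placed at or near absence.

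**Figure D4:**
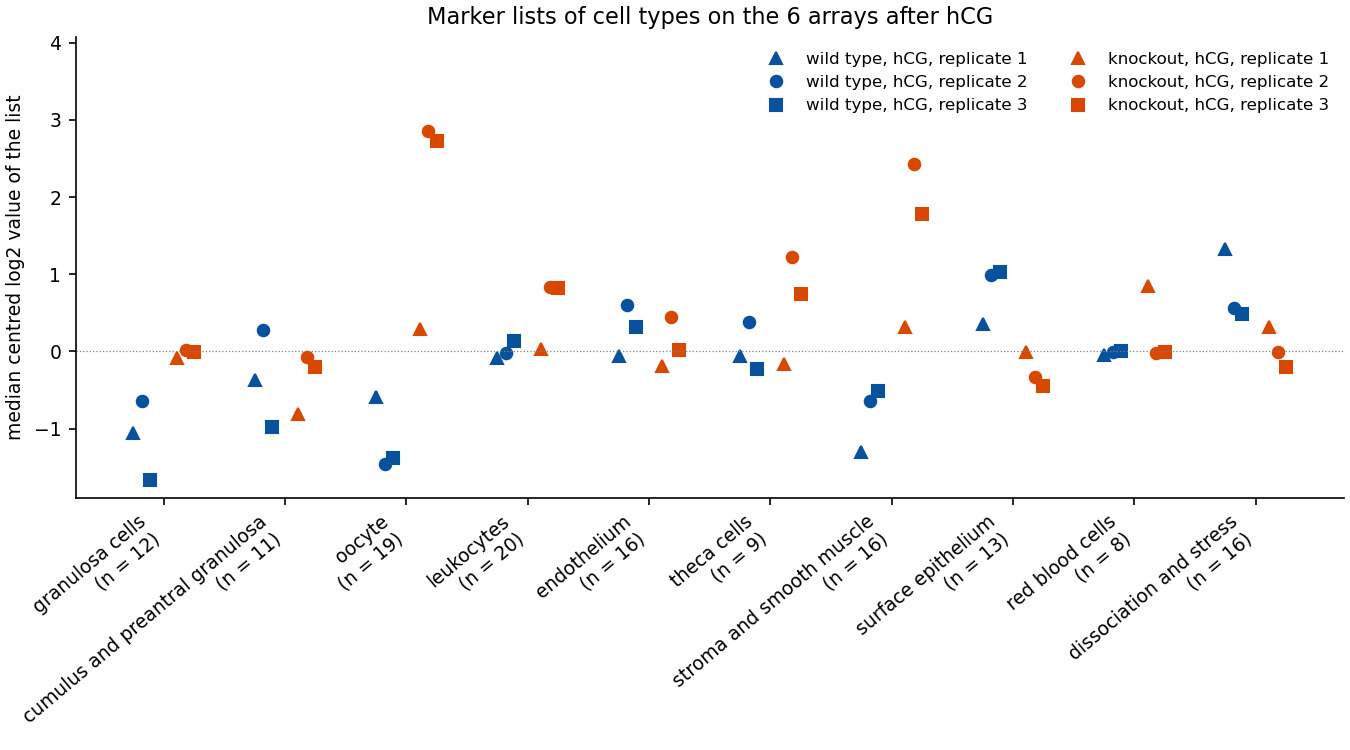
Median centred log2 value of each marker list on the 6 arrays after hCG (blue, wild type; orange, knockout; triangle, circle and square for replicates 1, 2 and 3). Oocyte and stroma markers are higher and surface epithelium markers lower on all 3 knockout arrays than on any wild-type array.

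The genotype difference after hCG was set against the difference before it, which rests on 6 other arrays. Before hCG the knockout values of 310 genes (1.7%) were higher, and those of 298 (1.64%) lower. Of the 1418 genes that rose after hCG 221 were called higher before it (15.6% of the rises after hCG, 71.3% of those before) and 2 lower, and of the 995 that fell 145 were called lower before it (14.6% and 48.7%) and 5 higher. The differences before and after correlated at r = 0.568 across the 18193 genes, a description without replicates. A test of the change between both differences called 44 genes (0.242%) with a more positive and 153 (0.841%) with a more negative difference after hCG. With the number of the array names as a random block 728 and 702 genes were called higher and lower before hCG and 29 and 109 for the change; the 6 arrays after PMSG alone gave 162 and 130, and with a replicate block 0 and 0. Of the 15 largest falls 9 differed between genotypes by less than 0.2 before hCG and 2 were called lower. Zbtb16 (-1.01) and Akr1c18 (-1.33) lay farther from 0 there. Of the 15 largest rises 12 were called higher before hCG. The large falls Prkg2, Snap25, Gcg, Npy, Tmem71, Asgr1 and Pitpnc1 lay near 0 before hCG, whereas large rises such as Srpx2 (4.79 before, 5.04 after), Actg2 (4.09 and 4.48) and Mmp2 (3.29 and 4.50) were already there before it.

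**Figure D5:**
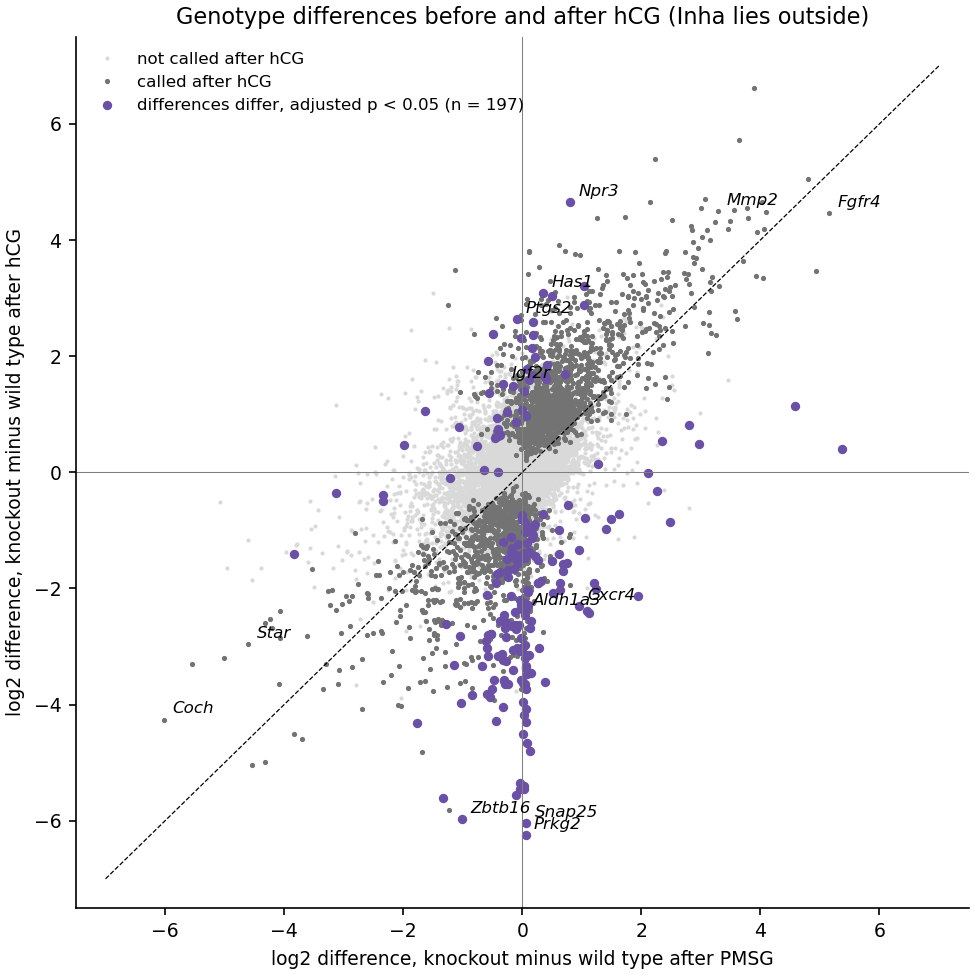
Log2 difference between the knockout and wild type after PMSG (horizontal) and after hCG (vertical) for all genes but Inha; the dashed line marks equal differences. The 197 purple genes had a difference after hCG that departed from the one after PMSG at an adjusted p under 0.05, and they include Prkg2 and Snap25 at the bottom and Npr3, Has1 and Ptgs2 at the top.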

How the data were processed

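RNA of the 12 samples was hybridized to single-colour Affymetrix mouse arrays (45101 probe sets). The deposited values are log2 values after GCRMA, per the submitters' processing notes, in a version not given in the sources used here, and each probe set has a median of 0 across the arrays, to within 5e-07, through a centring that no label states. The values were not rescaled. The annotation given with the series names a single gene for 34945 non-control probe sets (18193 genes, 9183 with 1 probe set), and 932 with several genes, 9160 with none and 64 controls were left out.

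Group means of all 12 arrays were fitted with limma 3.58.1 in R 4.3.3 on all 34945 probe sets, with Benjamini-Hochberg adjustment over all of them. The probe set that varied most (SD, 12 arrays) stands for its gene, which favours probe sets that respond. Genes named: Inha, the 15 largest rises and falls (at least 2-fold, no overlap), up to 12 called members of each of 44 lists (954 of 1017 genes measured) by adjusted p, the largest difference not called, and a panel of follicle genes. Members and lists were chosen with earlier results of these data known. The main fit did not pair samples by replicate number. After hCG the genotypes share no number in their array names, and the correlation of deviations cannot settle whether replicate numbers pair the samples. After PMSG, replicates 1 and 2 of both genotypes share numbers in their array names. Alternatives added after seeing the data were the 2-fold count, values within early and late arrays, and, before hCG and for the change, the array-name and replicate blocks.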

Additional observations from a re-analysis of the deposited data

Results flagged for a closer look

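Of the 268 genes named by rule, 36 had a genotype difference after hCG that departed from the one before it in limma, at a p adjusted over all single-gene probe sets; over all 18193 genes 0.242% were more positive and 0.841% more negative. The named genes were chosen largely by their difference after hCG, which is a term of the change, so nothing is read from their count. With the number of the array names as a random block 5 of the 5 more positive and 26 of the 31 more negative ones were still called, with early or late serial number as a covariate 4 and 26, and with a replicate block for the arrays after PMSG 3 and 21. Each value is the difference after hCG minus the difference before it. More negative after hCG were Prkg2 (-6.30), Snap25 (-6.10), Sphk1 (-5.48), Tmem71 (-5.46), Gcg (-5.43), Asgr1 (-5.41), Pitpnc1 (-5.32), Zbtb16 (-4.97), Sema4f (-4.93), Npy (-4.75), Akr1c18 (-4.28), Fzd1 (-3.55), Adam8 (-3.30), Cxcr4 (-3.27) and Scg2 (-3.26). The remaining ones in this direction were Slco2a1 (-3.25), Cited4 (-3.24), Stard5 (-3.09), Pfkfb4 (-2.94), Sult1e1 (-2.70), Cited1 (-2.65), Errfi1 (-2.44), Aldh1a3 (-2.42), Npr1 (-2.38), Lrp8 (-2.37), Cldn3 (-2.29), Nr3c1 (-1.99), Rgs2 (-1.94), Edn2 (-1.57), Epgn (-1.42) and Pparg (-1.11). More positive after hCG were Npr3 (3.84), Has1 (2.74), Ptgs2 (2.73), Flrt3 (2.49) and Igf2r (1.83). The adjusted p lay between 5.34e-05 for Prkg2 and 0.0499 for Slco2a1. Akr1c18 stood at -0.17, 0.38 and 1.62 in wild type before hCG and 4.32, 4.59 and 5.88 after it, and at -0.30, -1.07 and -0.79 and -1.02, -1.18 and 0.17 in the knockout, where the arrays before and after hCG overlapped. No group holds 4 arrays, so single outlying arrays were not tested.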

How the results depend on the processing

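The count of rises and falls, 1418 and 995, stayed within 1.5 times of these values in a fit of the 6 arrays alone (1058 and 913), with an SD filter (1568 and 1104), with the mean over probe sets (1612 and 1184), with robust moderation (1376 and 958), quantile-normalized again (1011 and 815), with array medians subtracted (1280 and 874) and with early or late serial number as a covariate (1649 and 1128). It moved further with array weights (2913 and 2242), with the number of the array names as a random block (760 and 565, consensus correlation 0.573), at an adjusted p under 0.01 (654 and 512) and on the 4 arrays with late serial numbers (13 and 7), where fewer arrays were tested. The replicate block over the 6 arrays after hCG gave 0 and 3 calls. Deviations of the samples correlated at 0.208, -0.0488 and 0.008 for numbers 1, 2 and 3, and 0.208 was the highest of all pairs. With 3 arrays a side these values cannot settle whether the numbers pair the samples. Leaving out an array gave 848 to 1393 rises and 623 to 969 falls, the lowest of each without wild-type replicate 3, with 924 and 915 rises without knockout replicates 2 and 3.

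Signs turned for 5 of the named genes, of which Pgr alone was called: Pgr (0.57), Btc (1.06) and Ptx3 (0.90) when quantile-normalized again; Ptx3 (0.00804) and Amh (0.72) with array weights; Btc (0.13), Ptx3 (0.0506) and Amh (0.95) on late arrays, where the within-class values are the same; Sox9 (0.0889) on early arrays; Btc (0.0383) and Amh (0.26) without knockout replicate 1, and Ptx3 (0.15) and Amh (0.37) without wild-type replicate 1. Leaving out each array gave -0.26 to 0.0383 for Btc, -0.35 to 0.15 for Ptx3 and -1.18 to 0.37 for Amh. The causes were not tested. The genotype difference before hCG (310 higher, 298 lower) gave 728 and 702 with the array-name number as a random block, 324 and 322 with the serial class, 268 and 316 with a replicate block for the arrays after PMSG, 162 and 130 on those 6 arrays alone and 0 and 0 on them with the block. The change of the difference (44 more positive, 153 more negative) gave 29 and 109, 34 and 118, and 19 and 93 with the first 3 of these. After PMSG, deviations correlated at 0.171, 0.265 and 0.0949 for numbers 1, 2 and 3, each array best with its own number, a hint from the data and not the design. Signal over background was not analysed here.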
